A study of Ovis aries with 7 samples.

Results

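Oxytocin messenger RNA, the transcript of the gene OXT, was followed array by array in the hypothalamus of 7 late-gestation sheep fetuses. Every non-control probe whose gene name or description gave OXT (oxytocin, neurophysin I) was taken, which was 2 of the 15008 probes on the array. The fetuses carried chronic catheters. In the 3 hypoxia fetuses maternal inspired oxygen was lowered for 30 min, and normoxia was then restored for another 30 min. The 4 control fetuses had 30 min of normoxia followed by another 30 min of normoxia. In both groups the hypothalamus was collected 60 min after the onset of the first period, and RNA from each fetus was hybridised to 1 Agilent 1-colour sheep array. The sources used here give no strain or exact gestational age for the groups.

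Oxytocin is a small peptide hormone cut from a precursor that also contains its carrier protein, neurophysin I. In the hypothalamus it is made mainly by large (magnocellular) neurons of the supraoptic and paraventricular nuclei, whose axons release it into the blood from the posterior pituitary, and by smaller neurons that project within the brain. It is known for milk let-down and uterine contraction, and in the brain for effects on stress responses and autonomic control. These neurons lie in small nuclei, so a whole-hypothalamus extract mixes their RNA with that of many other cells, and fewer oxytocin neurons and less OXT RNA per neuron cannot be told apart.

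Both OXT probes lie at the 3′ end of the same sheep OXT transcript, at its bases 441 to 500 and 442 to 501. They are 60 bases long, start 1 base apart and share 59 bases, so they are 2 spots of nearly the same sequence rather than separate parts of the gene. Their last 30 bases are shown because they place the measurement at the tail of the message. Capitals mark AATAAA, the letters of the common polyadenylation signal, on the printed strand.

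A_70_P039697: ggaattatgacaatgaAATAAAgccttttt

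A_70_P039696: gaattatgacaatgaAATAAAgcctttttt

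AATAAA occurred in the last 30 bases of 3.86% of all probes on the printed strand, and its reverse complement TTTATT in 1.89%. No other probe on the array shared a run of 20 bases with an OXT probe. The spots lie at separate positions of the array, at row 101, column 31 and row 95, column 20. A_70_P039697 had the higher mean level and is used below unless the other probe is named.

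Spots well above background made up 77.2% to 86.4% per array. Each array was scaled to its own 75th percentile of processed signal, which ranged from 2024 to 2908. A level is the log2 of the processed signal minus that of the 75th percentile, so 0 is the 75th percentile of the array. The hypoxia arrays were all on slide 1, control replicates 1 and 2 on slide 2 and control replicates 3 and 4 on slide 3, so slide and group cannot be told apart. Only 1691 probes carried a gene name, and the neuron and oligodendrocyte marker lists had 0 named genes on the array, so the tissue could not be checked against the markers on those lists. Probes for vasopressin, the sister hormone of oxytocin, were not analysed here. Named hypothalamic peptides such as pro-opiomelanocortin (POMC), neuropeptide Y (NPY) and somatostatin (SST) were well above background on all 7 arrays.

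OXT was well above background on all 7 arrays with both probes and was saturated on none. Its processed signal was 14074, 6338 and 4729 in hypoxia replicates 1 to 3, and 7397, 12045, 10718 and 1091 in control replicates 1 to 4. Scaled, these were levels of 2.44, 1.53 and 1.01 in hypoxia and 1.84, 2.57, 1.88 and -1.12 in control. All arrays but control replicate 4 lay between 1.01 and 2.57, with the groups overlapping, and control replicate 4 lay 2.13 below the next lowest array. OXT in that fetus was 9.33-fold below the mean of the other 3 controls, while across the 3 hypoxia fetuses it differed 2.69-fold from lowest to highest.

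The other probe gave levels of 2.20, 1.30 and 0.86 in hypoxia and 1.70, 2.68, 1.95 and -1.08 in control. It placed the same array at the bottom, and the probes differed by 0.04 to 0.24 on any array. A_70_P039697 minus the other probe was 0.15 to 0.24 on the hypoxia arrays, all on slide 1. On the control arrays it was -0.11 to 0.14, without overlap, and the cause was not tested. For scale, 23 probes printed as several spots and well above background throughout had a median SD of 0.09 between copies on 1 array. On control replicate 4 the spot signal was still 22.7 times its local background for A_70_P039697 and 19.3 times for A_70_P039696, so the low value was a measured level and not a floor.

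Whether hypoxia changed OXT was tested in the limma fit over all probes. The mean level was 1.66 ± 0.72 (SD, n = 3) after hypoxia and 1.29 ± 1.65 (SD, n = 4) in controls. The difference of 0.36 on the log2 scale (SE 0.85, limma adjusted p = 0.861) was smaller than the SD within either group. As a fold this is 1.29, with a 95% interval from 0.326 to 5.08, so neither a 3-fold fall nor a 5-fold rise lies outside what these 7 fetuses allow. The other probe gave a difference of 0.14 (SE 0.84, limma adjusted p = 0.955) with an interval from -1.84 to 2.11. The exact 2-sided permutation test over the 35 splits gave p = 0.971 for A_70_P039697 and p = 1.0 for the other probe, where the smallest p this design can give is 0.0571. For comparison, 2 of 12710 probes (0.0157%) passed the adjusted threshold of 0.05 and 15.7% had an unadjusted p under 0.05. Groups did not overlap for 16.2% of probes, and OXT was not among them.

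The sign of the OXT difference rested on single fetuses. Without control replicate 4 the control mean was 2.10 ± 0.41 (SD, n = 3) and the difference turned to -0.44 (limma adjusted p = 0.596). Without hypoxia replicate 1, the highest hypoxia value, it was -0.03 (limma adjusted p = 0.996). Against the controls of slide 2, with a mean level of 2.21, it was -0.55 (limma adjusted p = 0.582), and against those of slide 3, with a mean of 0.38 that includes control replicate 4, it was 1.28 (limma adjusted p = 0.571). The difference of the group medians was -0.34. Scaling mattered little: by the median, by quantiles, by probes seen on all arrays, after normexp or unscaled as deposited, the difference lay between 0.33 and 0.40. Over all 25 alternatives it ran from -0.55 to 1.28, above 0 in 20 and below 0 in 5. Of those 5, the fit without control replicate 4 and the replicate block, which leaves it out in effect, gave the same value. The fit against slide 2 alone also lacks that array, so these are not independent reversals.

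OXT was among the most variable transcripts between fetuses of the same group. Its SD of 1.65 over the 4 controls was larger than that of 99.3% of probes tested, where the median probe had 0.20, and 89 of the 12710 had a larger one. Its SD of 0.72 over the 3 hypoxia fetuses was larger than that of 97.6% of probes, where the median was 0.17. Much of the control spread came with 1 fetus: over control replicates 1 to 3 the SD was 0.41, larger than that of 82.6% of probes, beside a median of 0.19.

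OXT was low on the array of control replicate 4 beside few other probes. At 86.4%, this array had the largest share of spots well above background, and 14 of 12686 probes with a value on all arrays lay at least 1 log2 unit below every other array there. The same count was 18, 10 and 8 for the hypoxia arrays and 199, 46 and 18 for control replicates 1 to 3. Both OXT probes were among those 14. So was the brighter probe of GNRH1, the gonadotropin-releasing hormone that drives the reproductive axis, at -6.20 there and between -4.66 and -3.23 on the other arrays. The other tested GNRH1 probe was not among the 14. In the other direction, 34 probes lay at least 1 log2 unit above every other array, against 8 to 26 on each of the others.

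Hormone genes of the anterior pituitary were among the transcripts that were high in control replicate 4. Prolactin (PRL) had a level of 1.13 there and between -5.14 and -3.46 elsewhere. Growth hormone (GH) had -1.82 there and was not well above background on any other array, where it lay between -9.73 and -8.28. The follicle-stimulating hormone subunit FSHB had -3.09 there and between -9.60 and -6.09 elsewhere.

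The pituitary list as a whole did not move one way on that array. Of its 7 tested genes, which leave out GH and FSHB as too dim elsewhere, PRL lay at least 1 log2 unit above the 7-array median there, and CGA and TSHB at least 1 below. CGA, the shared subunit of the glycoprotein hormones, ranged from -6.47 to 1.39 over the 7 arrays and TSHB, the thyrotropin subunit, from -9.09 to -3.16. The mean deviation of the 7 genes was 0.56 on control replicate 4. It was between -0.79 and 0.37 in hypoxia and between -1.29 and 0.81 over all controls. POU1F1, a defining factor of the cells that make PRL and GH, and GNRHR, the receptor for GNRH1, were not well above background on any array.

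On the erythroid list, 2 of 3 tested genes lay at least 1 log2 unit above their 7-array median there. The haemoglobin gene HBB was at 5.20 and between 2.03 and 4.12 elsewhere, and AHSP, a haemoglobin chaperone, was at -2.47 and between -4.64 and -3.38 elsewhere. The third, CA1, a red cell carbonic anhydrase, lay 0.13 above its median. On the meninges and fibroblast list, 1 of 10 genes lay that far above, the fetal growth factor IGF2, at 3.76 and between 0.28 and 2.86 elsewhere. The others lay 0 to 0.92 above their medians, with COL3A1 at 0.07 and DCN at 0.09. The mean deviation of the 10 genes was 0.52 there, the highest of the 7 arrays, and between -0.75 and 0.44 elsewhere. The part of these transcripts in the low OXT value was not tested.

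With the exception of GNRH1, the other tested neuropeptides did not fall by 1 log2 unit with OXT in control replicate 4. The list of other hypothalamic peptides had 15 tested genes, each taken by its brightest tested probe. GNRH1 was the only gene of these at least 1 log2 unit below its 7-array median there, and none was as far above. POMC, which is also on the pituitary list, was at 1.99 there against 0.71 to 1.52 elsewhere. ADCYAP1, which encodes the peptide PACAP, was at 4.42 against 3.57 to 3.76. Galanin (GAL), a peptide that magnocellular neurons can release beside their hormone, was at 0.14 against -0.98 to -0.29.

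Of the genes through which oxytocin acts and is made, few were on the array by name, and none passed the adjusted threshold. OXTR, the oxytocin receptor, was dim, with levels of -6.56, -6.80 and -6.46 in hypoxia and -6.00, -7.32, -6.12 and -5.81 in control. Its groups overlapped, and the difference of -0.29 (limma adjusted p = 0.70) was opposite in sign to the 0.28 of its other probe. AVPR1B, a vasopressin receptor, differed by 0.28 (limma adjusted p = 0.35), against -0.42 with its other probe. For receptors and signalling, 2 of 11 listed genes were tested, with a median difference of -0.01.

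Among processing genes, PCSK1, a protease that cuts prohormones, had levels of -2.15, -2.68 and -2.35 in hypoxia and -1.90, -1.94, -2.22 and -2.19 in control. Hypoxia was lower by mean, with the groups overlapping, and the difference was -0.33 (SE 0.16, limma adjusted p = 0.35). CPE, the carboxypeptidase that trims the cut peptides, differed by -0.03 (limma adjusted p = 0.94). FURIN, another such protease, was not well above background on any array. ACE, the only measured peptidase of the breakdown list, was well above background only in control replicate 4, at -5.72.

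Among the other magnocellular genes, GAL differed by -0.14 (limma adjusted p = 0.82). NOS1, which makes nitric oxide in these neurons, differed by 0.02 with its brighter probe and by 0.69 with the other. PENK, the enkephalin precursor, was not well above background on any array. The transcription factors of the hypothalamic lineages differed by 0.10 or less between the group means: ARNT2, which is needed for magnocellular neurons to form, differed by -0.10, ISL1 by 0.03 and NR5A1 by -0.09, each with a limma adjusted p of at least 0.825. Signs this close to 0 turned under several alternatives.

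Over all lists, 89 of 263 genes were tested and 0 passed the adjusted limma threshold, while 21 had an unadjusted p under 0.05, beside 15.7% of all probes. CD247 alone passed in 5 of the alternatives. The median difference over all 12710 probes was 0.03, and 6956 of them were higher in hypoxia. The inputs to magnocellular neurons were steroid, angiotensin, opioid, adrenergic and glutamate receptors, with a water channel that is also on the astrocyte list. Of these genes, 8 of 12 were higher, with a median of 0.16. Their smallest unadjusted p-values belonged to the opioid receptor OPRM1, with a difference of 0.50 (SE 0.19, limma adjusted p = 0.29), and the estrogen receptor ESR2, with 0.65 (SE 0.28, limma adjusted p = 0.33).

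For other hypothalamic peptides 9 of 15 were higher, with a median of 0.08. Natriuretic peptide C (NPPC) had the smallest unadjusted p and differed by 0.74 (SE 0.22, limma adjusted p = 0.21), and urocortin (UCN) by 0.37 (limma adjusted p = 0.33). Activity genes, which neurons transcribe on stimulation, had a median of 0.32 with 6 of 8 higher. JUN was at 2.93, 3.03 and 3.10 in hypoxia and 2.44, 2.75, 2.69 and 2.70 in control, without overlap (limma adjusted p = 0.22). CREM differed by 0.44 (limma adjusted p = 0.21), FOS by 0.69 (SE 0.31, limma adjusted p = 0.34), and MYC by -0.37 (limma adjusted p = 0.23), lower in hypoxia without overlap. Hypoxia targets had a median of 0.05 over 6 genes, with 3 higher and 3 lower, the lowest at -0.12. The highest were the vasoconstrictor peptide EDN1 with 1.29 (SE 0.30) and CITED2 with 0.41, both with a limma adjusted p of 0.16.

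Among the cell type lists no member passed the adjusted threshold. All 6 astrocyte genes were higher in hypoxia by mean, with a median of 0.45, including the glutamate transporter SLC1A2 with 0.76 and the gap junction gene GJA1 with 0.46. All 10 meninges and fibroblast genes were lower, with a median of -0.62, including S100A4 with -1.10 and TIMP1 with -0.74. Endothelial genes had a median of -0.38 over 4 genes, 3 lower (among them TEK -0.59 and KDR -0.51) and 1 higher, at 0.32. Pituicyte and tanycyte genes had -0.30 over 2 (VIM -0.49, FGF10 -0.11), and microglial genes 0.22 over 3 (TYROBP 0.27, ITGAM 0.22). The pituitary list had 0.34 over 7 (NEUROD1 -0.60, LHB 0.39), the erythroid list -0.33 over 3 (CA1 -0.63, HBB 0.67, AHSP -0.33), and the T cell list -0.07 over 4 (CD247 1.17, CD3E -1.08). TTR, the only tested choroid plexus gene, differed by -1.35 and ranged from -1.77 to 3.69, and LEF1, for the thalamus, by 0.07. The part of these lists in the OXT values was not tested.

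The genes most like OXT were ranked by the root mean square difference between mean-centred levels over the 7 arrays, where 0 is an identical profile and a flat profile has 1.16. Among 856 named genes GNRH1 was closest by its brighter probe, at 0.74. AREG, an epidermal growth factor receptor ligand, followed at 0.83, then TUBA4A (a tubulin) and PGF (placental growth factor) at 0.93 each, and SHMT1 (a serine hydroxymethyltransferase that the array calls SHMT2) at 0.93. Among 11289 unnamed probes A_70_P035521 came closest, at 0.44, with A_70_P025026 at 0.49.

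These profiles were all lowest in control replicate 4, where AREG was at -3.38 against -2.69 to -1.97 elsewhere and A_70_P025026 at -1.71 against 1.27 to 1.88. PGF was barely lower there, at -2.85 against -2.75 in hypoxia replicate 3. Ranked over the other 6 arrays, where a flat profile has 0.53, only PGF (0.32) stayed among the 5 closest, joined by TNFSF13B (0.24), LYZ (0.29), SSTR2 (0.34) and RILPL2 (0.35). GNRH1 then had 0.73, farther from OXT than a flat profile.

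Of named genes with an SD of at least 0.5, the most opposite by Pearson r over the 7 arrays were COL6A1 (-0.99), ITGA4 (-0.94), AHSP (-0.91), BMP4 (-0.91) and PTGS2 (-0.84). All 5 were highest in control replicate 4. COL6A1, a collagen chain, was at -4.00 there and between -7.52 and -6.34 elsewhere, and it was well above background on only 4 of the 7 arrays. Without that array r was -0.98 for COL6A1, -0.63 for ITGA4, -0.72 for AHSP, -0.72 for BMP4 and -0.49 for PTGS2. These values describe 7 arrays that also share slides, and carry no test.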

How the data were processed

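Agilent Feature Extraction 10.1.1.1 produced the spot intensity values, per the file headers. The deposited table is the log2 of that processed intensity, matched within 5.0e-09, unscaled between arrays. Here the log2 processed intensity was taken relative to the 75th percentile over spots that are not controls, per array. Spots marked as outliers were dropped, saturated ones kept, and copies of a probe averaged. A probe entered the fit if at least 3 of the 7 arrays showed it well above background, which 12710 did, and was fitted with limma 3.58.1 (R 4.3.3), 2-sided, with Benjamini-Hochberg adjustment at 0.05. The number of arrays limits the precision. Sample titles gave the groups, and each replicate is a separate fetus per the labels.

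Names came from the files and RefSeq. A gene's probe is its brightest tested one. Named are OXT, the genes most alike and opposite, all measured members of the receptor, processing, breakdown, magnocellular peptide and lineage factor lists, and of other lists members called or the 2 with the smallest p, with cell type genes at least 1 log2 unit off in control replicate 4. FOS, MYC, COL3A1, DCN, POMC, NPY, SST and ADCYAP1, the genes closest without control replicate 4 and POU1F1 were named after their values were seen. Members and lists were chosen with earlier results of these data known. A gene of the pituitary list is not reported here and was taken off it. The fit was tested on simulated data. Other scalings, background corrections, filters, variance models, slides, a replicate block and leaving out each array were tried.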

Additional observations from a re-analysis of the deposited data

Results flagged for a closer look

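OXT itself was not among the values set apart by Dixon's criterion for 4 samples: the gap of control replicate 4 to the nearest control was 0.802 of the range, below the critical value, and 0.738 with the other probe. Of 59 sets of 4 control values, 8 exceeded it. Chance flags about 1 in 20 sets, but many of these genes were picked by their values, so the count cannot be read against that share. In control replicate 4 these were PRL at 1.13, TUBA4A at -0.79, A_70_P035521 at -7.16, A_70_P025026 at -1.71 and COL6A1 at -4.00. TUBA4A, COL6A1 and the unnamed probes had been picked for a profile like or opposite to OXT, and PRL for its deviation on that array. The other 3 were NR5A1 at -8.60 in control replicate 1, and ESR2 at -5.47 and CD3E at -2.42 in control replicate 2.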

How the results depend on the processing

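OXT passed the threshold under none of the alternatives run (lowest limma adjusted p 0.567). Its difference turned to -0.55 against slide 2 alone and ran from -0.44 to 0.79 with single arrays left out. The other OXT probe turned to -0.74 against slide 2 alone and ran from -0.66 to 0.59. Under the replicate block the differences were -0.44 and -0.66, the values without control replicate 4, which has no hypoxia partner and so adds nothing to that fit. The labels do not say whether replicate numbers pair fetuses. Same-number deviations correlated at 0.121, 0.0878 and 0.107, and each hypoxia array correlated best with its own number, a hint from the data and not the design.

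Probes called in limma, 2 as reported (1991 at an unadjusted p under 0.05), numbered 0 when scaled to probes above background everywhere, without a filter and under the replicate block, and 0 to 6 with single arrays left out. They numbered 4 against slide 3 alone and with array weights, 10 in the deposited values, 25 for probes well above background on all arrays, 35 after normexp, 47 and 54 for spot median and mean signals, 57 with a trended prior and 232 against slide 2 alone. List genes called were 1 (CD247) under normexp, the all-array filter, the trended prior and both spot signals. Of the 5 genes most like OXT, 1 remained by Pearson r, 2 by quantile normalization and 1 to 5 with single arrays left out.

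Of 40 other named genes, 26 kept their sign throughout and 14 turned at least once. With single arrays left out, the ranges were -0.10 to 0.10 for CPE, -0.32 to 0.050 for GAL, -0.19 to 0.27 for NOS1, -0.24 to 0.073 for ARNT2, -0.11 to 0.16 for ISL1 and -0.59 to 0.63 for NR5A1. They were -0.24 to 0.070 for FGF10, -0.71 to 2.40 for CGA, -0.20 to 1.77 for TSHB, -1.13 to 0.091 for CA1, -0.59 to 0.043 for AHSP and -0.074 to 0.22 for LEF1. Against slide 2 alone, OXTR turned to 0.057, GAL to 0.13, NOS1 to -0.052, NR5A1 to 0.43 and FGF10 to 0.014. Against slide 3 alone, CPE turned to 0.047, ISL1 to -0.32, CGA to -0.78, TSHB to -0.36 and HBB to -0.0092. Under the replicate block, again as without control replicate 4, GAL turned to 0.050, NR5A1 to 0.10 and AHSP to 0.043. Quantile normalization turned CPE (0.0029) and NOS1 (-0.22), and normexp NOS1 (-0.055). Median scaling turned NOS1 (-0.0096) and ISL1 (-0.0037), the deposited values CPE (0.0097), and array weights CPE (0.018), NOS1 (-0.0084) and ISL1 (-0.064). Spot mean signals turned NR5A1 (0.020), and spot medians NOS1 (-0.0099) and NR5A1 (0.025). The causes were not tested. Among the genes that turned, OXTR, NOS1 and NR5A1 are dim and lie near background, which limits their precision. CPE, which also turned, is bright, with a mean level of 5.07 in controls.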
